A study of Mus musculus with 10 samples.

Results

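In mouse spermatogonia, 2976 intergenic tiles of 1 kb carried an intermediate level of CpG methylation in both fractions sorted by surface TSPAN8, of 74886 autosomal intergenic tiles that could be measured and 187549 measured tiles in all. The level of a tile is the share of methylated reads, pooled over those of its cytosines that had 10 reads or more in each library. A tile was taken when it held at least 3 such CpGs, lay outside the span of every protein-coding gene and over 1 kb from its ends, and had a pooled level from 30 to 70% in both libraries. In addition, at least 50% of its cytosines had to lie between 20 and 80% in both libraries. The levels of both libraries therefore chose the tiles, and the levels at these cytosines are given as a description, without support from them for anything else. Tiles that met the rule are called intermediate tiles below, and the other 71910 intergenic tiles include 53580 above 80% in both libraries and 9381 below 20% in both.

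The TSPAN8-high library came from the spermatogonia that stained most strongly with antibodies against the tetraspanin TSPAN8, and the TSPAN8-low library from those that stained most weakly. All cells were ID4-EGFP+ and came from the testes of male pups at postnatal day 6, from the Id4-eGfp transgenic line LT-11B6 on a C57BL/6 background. Methylation was read by reduced-representation bisulfite sequencing (RRBS), in which 300 ng of DNA per library was cut with BfaI, MseI and MspI and sequenced as paired reads of 50 bases. Each library pooled 5 sorts and there was 1 library per fraction, so no error between replicates can be given, and every test compares the 2 libraries rather than the fractions. The series also holds 8 chromatin samples, which were not analysed here.

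In mammalian DNA most CpGs are methylated, and unmethylated CpGs are concentrated in CpG islands and in active regulatory elements. Male germ cells lose nearly all methylation in the embryo and gain it again before birth, in prospermatogonia, through DNMT3A and its partner DNMT3L, so that postnatal spermatogonia carry a largely complete methylome. A single cytosine on a single DNA molecule is methylated or not. An intermediate level in DNA from many cells can thus be a share of cells, of alleles or of molecules, and these cannot be told apart here.

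The germ cell label was read at promoter windows that are known to be methylated in somatic tissues and open in germ cells. All 15 measured of 22 such germline genes were below 20% in both libraries, with medians of 2.08% in TSPAN8-high against 2.08% in TSPAN8-low. The region 1 to 5 kb upstream of H19, which carries methylation of the paternal copy in the soma and of both copies in male germ cells, was at 98.1% in TSPAN8-high against 96.1% in TSPAN8-low over 6 CpGs. Promoters of the listed Sertoli, Leydig, peritubular myoid and endothelial cell genes that were measured were mostly below 20% as well, 13 of 15 in both libraries, and therefore do not show whether such cells were present. The 1 measured macrophage gene was at 92.1% (TSPAN8-high) and 96.9% (TSPAN8-low). The libraries held 83658949 reads over 6745376 listed cytosines in TSPAN8-high against 83773700 in TSPAN8-low.

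Sequence was available where an intermediate tile held the annotated start of a non-coding gene. Of 11588 RefSeq windows around such starts, from 250 bases before to 50 bases after, 42 lay over intermediate tiles, and 5 of these had at least 5 cytosines measured. They are shown because their CpGs are the measured positions behind the levels given next, with 5′ to 3′ sequence of the gene's own strand from RefSeq (GRCm38.p6, the build called mm10) and capitals marking the measured CpGs.
Gm35148, chr11:93808306-93808605, minus strand: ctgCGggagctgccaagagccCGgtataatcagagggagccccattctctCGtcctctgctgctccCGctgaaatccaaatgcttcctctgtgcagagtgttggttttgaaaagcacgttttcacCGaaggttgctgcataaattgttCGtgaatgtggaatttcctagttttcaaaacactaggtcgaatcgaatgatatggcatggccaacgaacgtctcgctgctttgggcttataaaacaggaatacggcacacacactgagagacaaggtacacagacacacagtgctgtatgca
Gm30905, chr9:90697564-90697863, minus strand: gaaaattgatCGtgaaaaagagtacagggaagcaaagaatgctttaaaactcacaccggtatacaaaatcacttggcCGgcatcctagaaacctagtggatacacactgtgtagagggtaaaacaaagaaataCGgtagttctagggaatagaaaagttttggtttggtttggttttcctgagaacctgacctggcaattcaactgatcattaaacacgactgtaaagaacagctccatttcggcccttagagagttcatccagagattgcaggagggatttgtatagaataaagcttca
Gm34585, chr13:88520943-88521242, plus strand: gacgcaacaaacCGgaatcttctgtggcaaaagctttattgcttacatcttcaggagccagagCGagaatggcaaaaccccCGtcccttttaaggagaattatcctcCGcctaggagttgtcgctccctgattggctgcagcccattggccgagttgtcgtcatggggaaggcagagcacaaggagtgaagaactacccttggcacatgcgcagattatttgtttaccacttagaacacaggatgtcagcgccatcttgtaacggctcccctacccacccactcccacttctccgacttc
Gm34636, chr19:43568938-43569237, minus strand: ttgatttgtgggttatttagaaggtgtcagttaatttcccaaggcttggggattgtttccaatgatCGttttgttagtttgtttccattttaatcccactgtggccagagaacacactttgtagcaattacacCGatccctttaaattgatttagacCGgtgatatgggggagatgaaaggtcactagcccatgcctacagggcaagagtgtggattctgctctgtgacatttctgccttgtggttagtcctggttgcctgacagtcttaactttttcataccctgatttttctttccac
Gm46972, chr6:114272179-114272478, plus strand: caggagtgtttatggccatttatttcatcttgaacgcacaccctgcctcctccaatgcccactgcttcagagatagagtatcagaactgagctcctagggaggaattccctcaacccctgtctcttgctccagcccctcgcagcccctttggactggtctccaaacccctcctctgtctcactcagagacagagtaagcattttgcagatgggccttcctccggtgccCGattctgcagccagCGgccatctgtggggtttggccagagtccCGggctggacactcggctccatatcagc
Each of the 5 windows held CCGG, the site cut by MspI, which 35.5% of all non-coding windows of that length held. CTAG, cut by BfaI, was in 5 of the 5 windows and in 59.3% of all non-coding windows, and TTAA, cut by MseI, was in 3 of the 5 and in 60.2%. These sites read the same on both strands and mark where a library can begin, so they describe the sampling of the windows. All 5 genes are annotated lncRNAs with placeholder symbols.

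In the Gm35148 window, all 6 capitals were partly methylated in both libraries. From 5′ to 3′ the levels were 45.5, 45.5, 60, 45.0, 55.0 and 55.0% in TSPAN8-high, against 30, 30, 37.5, 37.5, 31.2 and 31.2% in TSPAN8-low. The first 2 CpGs had 11 reads in TSPAN8-high against 10 in TSPAN8-low, and the next 4 had 20 and 16, so the CpGs of 1 window largely share their reads. The window as a whole was at 52.0% in TSPAN8-high against 33.3% in TSPAN8-low, and its tile, chr11:93808001-93809000, was at 59.0% in TSPAN8-high against 54.2% in TSPAN8-low.

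Single CpGs also differed within the windows of the other starts. At Gm34636 the 3 capitals stood at 90.5, 52.0 and 55.6% in TSPAN8-high and at 73.5, 30.4 and 25% in TSPAN8-low. At Gm30905 they stood at 26.9, 80 and 31.2% in TSPAN8-high and at 44.0, 100 and 25% in TSPAN8-low, so that in both libraries the middle CpG was the most methylated of the 3. The 4 CpGs at Gm34585 lay between 50 and 59.4% in TSPAN8-high, and between 43.3 and 80% in TSPAN8-low. At Gm46972 they were 55.9, 58.8 and 50% in TSPAN8-high and 52.8, 77.8 and 69.2% in TSPAN8-low. These CpGs had 10 to 52 reads in TSPAN8-high against 10 to 68 in TSPAN8-low. The tiles behind these 4 starts were not called different between the libraries by the test described further below, nor was that of Gm35148.

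Over all intermediate tiles the median level was 51.8% in TSPAN8-high against 51.8% in TSPAN8-low, within the range the rule fixed. The quartiles ran from 42.9 to 60% in TSPAN8-high, and from 42.3 to 60.5% in TSPAN8-low. The other intergenic tiles had medians of 94.4% in TSPAN8-high against 94.6% in TSPAN8-low. Intermediate tiles held 395912 reads in TSPAN8-high against 391130 in TSPAN8-low over 16891 cytosines, with a median of 89 reads per tile in TSPAN8-high against 88 in TSPAN8-low. Depth per cytosine, which the rule did not use beyond its minimum, was 16 reads at the median in either library, in intermediate and in other intergenic tiles. Most tiles rested on few CpGs: 51.3% had exactly 3 measured, against 55.7% of the other intergenic tiles, and 47 had at least 10. The number of tiles depends on the minimum of reads: the same rule gave 321 with at least 20 reads and 9568 with at least 5.

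**Figure D1:**
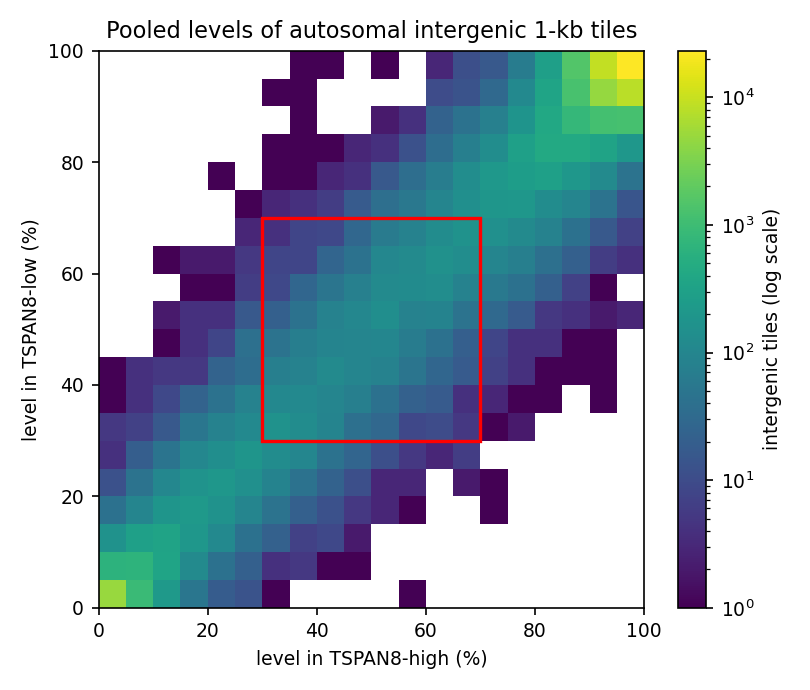
Number of autosomal intergenic 1-kb tiles (colour, log scale) by pooled methylation level in TSPAN8-high (x, %) and TSPAN8-low (y, %), in steps of 5 points. The red square marks 30 to 70% in both libraries; 2976 of the tiles in it also met the condition on single cytosines, while most intergenic tiles lie in the upper right corner.

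Tiles just inside and just outside the bounds had similar levels on the side that decided. The 2 tiles just inside the lower bound with at least 10 cytosines were chr8:125709001-125710000 near Ntpcr, at 30% in TSPAN8-high against 35.2% in TSPAN8-low, and chr1:131117001-131118000 near Dyrk3, at 37.7% in TSPAN8-high against 30.2% in TSPAN8-low. Just outside it was chr12:72846001-72847000 near 4930447C04Rik, at 29.9% in TSPAN8-high against 29.9% in TSPAN8-low, as was chr1:186415001-186416000 near Tgfb2, at 29.9% in TSPAN8-high against 38.7% in TSPAN8-low. At the upper bound, chr4:16435001-16436000 near Ripk2 was inside at 69.9% in TSPAN8-high against 63.7% in TSPAN8-low, and chr3:111109001-111110000 near Prmt6 was outside at 70.1% in TSPAN8-high against 59.4% in TSPAN8-low. The second tile inside, chr5:107075001-107076000 near Tgfbr3, the gene of the TGF-beta co-receptor betaglycan, was at 70% in TSPAN8-high against 51.1% in TSPAN8-low, and the second outside, chr1:42449001-42450000 near Pou3f3, was at 42.0% in TSPAN8-high against 70% in TSPAN8-low.

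Cytosines that the rule had not read were also intermediate. Of the listed cytosines in intermediate tiles, 13066 in 2698 tiles had fewer than 10 reads in at least 1 library, down to the table's minimum of 5, and so had no part in the choice. Their mean level was 50.9% in TSPAN8-high against 51.3% in TSPAN8-low, and 65.9% of them in TSPAN8-high against 65.7% in TSPAN8-low lay between 20 and 80%. In the other intergenic tiles such cytosines averaged 65.6% in TSPAN8-high against 65.7% in TSPAN8-low, with 15.3% in TSPAN8-high against 14.4% in TSPAN8-low between 20 and 80%. Pooled by tile where at least 3 were listed, they put 51.6% of 1885 intermediate tiles at 30 to 70% in both libraries, against 4.40% of 43249 other intergenic tiles. Neighbouring cytosines share restriction fragments and reads, so they are not independent of the cytosines that were used, and the difference was not tested.

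**Figure D2:**
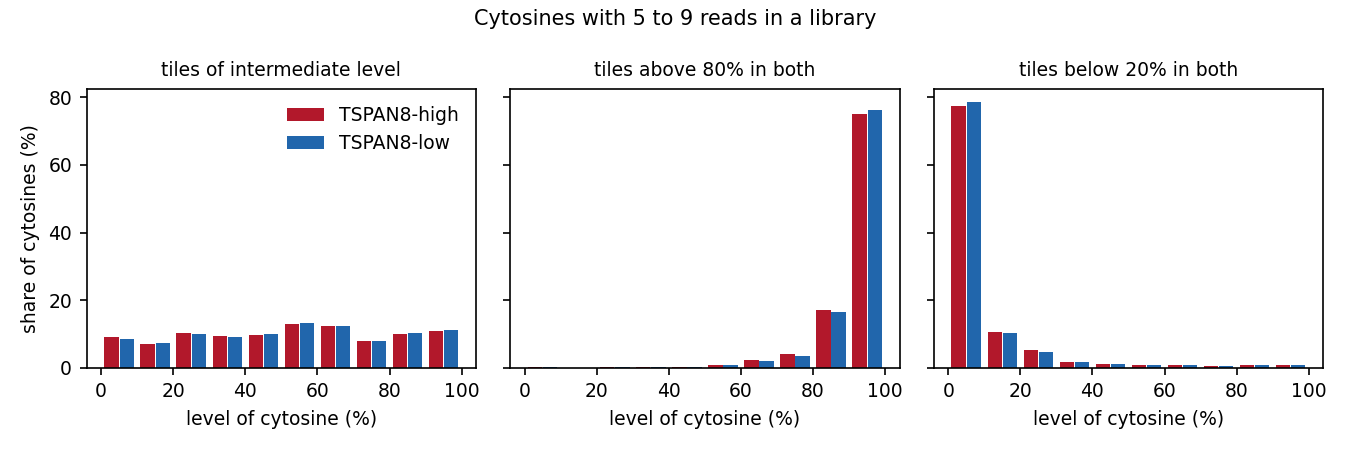
Share of cytosines (y, %) by methylation level (x, %, in steps of 10 points) among cytosines with 5 to 9 reads in at least 1 library, in TSPAN8-high (red) and TSPAN8-low (blue). In intermediate tiles (left) the levels spread over the whole range, with means of 50.9 and 51.3%, while in tiles above 80% (centre) and below 20% (right) they gather at the ends.

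A tile chosen on 1 library alone was mostly intermediate in the other. Of 4748 tiles that met the rule in TSPAN8-high, 73.5% lay between 30 and 70% in TSPAN8-low, 2.61% lay below 20% and 4.68% above 80%. Of 4700 that met it in TSPAN8-low, 73.8% lay between 30 and 70% in TSPAN8-high. Over all autosomal intergenic tiles, 7.88% lay in that range in TSPAN8-low, and 7.88% in TSPAN8-high. The choice and the reading came from different libraries here, though from cells of the same line, age and sort.

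The cytosines of 1 tile differed among themselves by more than counting error. The standard deviation within a tile was 20.7 points in TSPAN8-high against 20.9 points in TSPAN8-low, where reads drawn at the tile's own level would give 12.3 and 12.4 points. The median distance between the lowest and the highest cytosine of a tile was 46.0 points in each library. The strands of a CpG stood at the same mean level: over 4775 CpGs measured on both, the plus strand averaged 50.9% and the minus strand 50.7% in TSPAN8-high, and 50.6% and 50.6% in TSPAN8-low. At single CpGs the strands differed with a standard deviation of 21.2 points (TSPAN8-high) and 20.7 points (TSPAN8-low), against 15.6 and 15.7 points from counting alone. In the other intergenic tiles it was 10.9 and 10.7 points, against 7.76 and 7.60 from counting, so strands exceeded counting error there too. The spread within tiles was computed for intermediate tiles only.

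Tiles of intermediate level were a larger part of the tiles in gene-poor DNA and near chromosome starts. They made up 3.43% of measured intergenic tiles at 1 to 10 kb from the nearest protein-coding gene, and between 3.72 and 3.96% in each distance class up to 500 kb. At 500 kb to 1 Mb the share was 5.66%, and beyond 1 Mb it was 10.7%, or 124 of 1160 tiles. The first 5 Mb of the chromosomes, which in the mouse is the end that carries the centromere, held 110 among 971 measured tiles, a share of 11.3%, against 3.88% elsewhere. Much of this came from 1-Mb windows at 3 Mb on chromosomes 9, 16 and 12, which held 24, 14 and 10 of the 110. Of the 24 on chromosome 9, 13 and 5 lay in short stretches described further below. The autosomes ranged from 3.35 to 5.08%, the highest being chromosome 7. By depth the share moved only from 3.88% in the least covered tiles to 4.34% in the most covered, and by number of CpGs it stayed between 3.07 and 4.62%. None of these differences was tested, because tiles of a library are not replicates.

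Overlap with annotated non-coding genes was set beside that of the other intergenic tiles, without a test. An lncRNA overlapped 14.9% of intermediate tiles and 18.2% of the other intergenic tiles, and a pseudogene 2.99% and 2.10%. Among the other tiles, those above 80% had shares of 17.5% for lncRNAs and 1.32% for pseudogenes, and those below 20% had 24.7% and 5.75%. No intermediate tile overlapped an annotated miRNA, tRNA or rRNA gene, but such genes also lay in only 0.0487%, 0.209% and 0.00278% of the other intergenic tiles.

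By the family of the nearest gene, chemosensory receptor clusters had the highest shares of the 15 lists, a difference that was not tested. Vomeronasal receptors detect pheromones in the vomeronasal organ, and their genes lie in large arrays of near copies. Of 265 measured intergenic tiles whose nearest protein-coding gene was a vomeronasal receptor, 63 were intermediate, or 23.8%, spread over 40 genes and 8 chromosomes. Their pooled level was 54.6% in TSPAN8-high against 54.9% in TSPAN8-low, and 218 cytosines that the rule had not read averaged 57.3% in TSPAN8-high against 60.1% in TSPAN8-low. The median over all 265 measured tiles was 65.8% in TSPAN8-high against 67.9% in TSPAN8-low, below the medians of 94.4 and 94.6% of intergenic tiles outside the rule. The 63 intermediate tiles had a median of 16.0 reads per cytosine in TSPAN8-high and in TSPAN8-low. The depth of all 265 tiles is not given here.

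The vomeronasal tiles with the most cytosines came from 1 array on chromosome 17. The tile chr17:19211001-19212000, 129690 bp from Vmn2r98, was at 62.2% in TSPAN8-high against 69.7% in TSPAN8-low. The tile chr17:18987001-18988000 near Vmn2r97 was at 68.1% in TSPAN8-high against 66.5% in TSPAN8-low. The tile chr17:19319001-19320000 near Vmn2r99 was at 62.7% in TSPAN8-high against 57.1% in TSPAN8-low. Their adjusted p from Fisher's exact test were 0.486, 1.00 and 0.881, and none was called.

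Olfactory receptors, the odorant receptors of the nose, likewise form arrays. Next to them 69 of 547 measured tiles were intermediate, a share of 12.6% over 51 genes and 9 chromosomes, pooled at 53.9% in TSPAN8-high against 54.8% in TSPAN8-low. The tile near Olfr834, chr9:18991001-18992000, was the deepest of the 3 best measured, with 358 reads in TSPAN8-high against 312 in TSPAN8-low, and stood at 60.1% in TSPAN8-high against 58.3% in TSPAN8-low. Next to Zfp zinc finger genes, DNA-binding factors that also lie in arrays, the share was 4.90%, 74 of 1511. For comparison, 3.97% of all measured intergenic tiles were intermediate. Reads from near-identical copies can be placed at either copy, and how the authors treated them is not given in the sources used here.

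**Figure D3:**
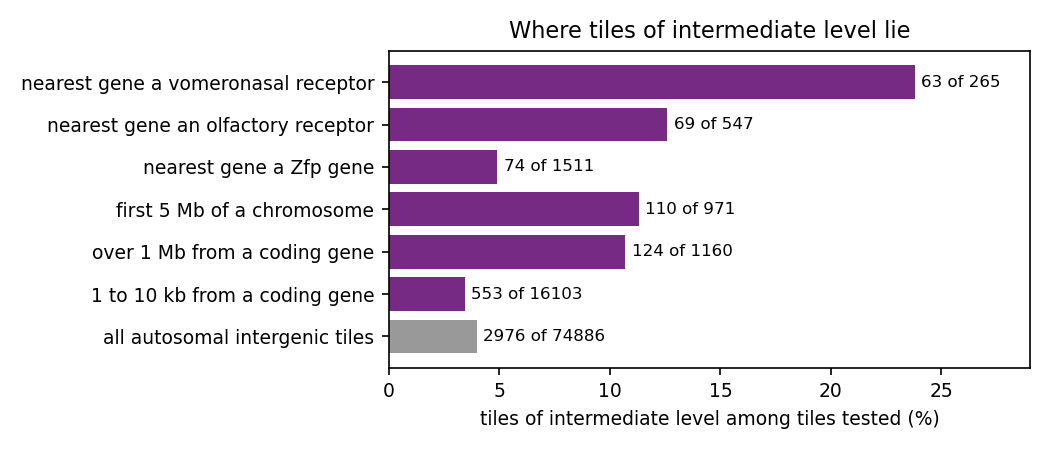
Share of measured autosomal intergenic tiles that were of intermediate level (x, %), by nearest protein-coding gene or position; the numbers beside the bars give intermediate tiles and tiles measured. The share was 23.8% beside vomeronasal receptors and 10.7% over 1 Mb from a coding gene, against 3.97% over all such tiles (grey).

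Germ cell and imprinted genes had small numbers of intermediate tiles beside them. None of them was called, but only 1.08% of all intermediate tiles and 0.648% of all tiles were, so nothing is read from it. Among tiles nearest to the listed genes of spermatogonial stem cells and self-renewal, 15 of 427 were intermediate, or 3.51%, with 1 of 104 beside genes of differentiating spermatogonia and 1 of 23 beside meiosis genes. The tile beside Tspan8 itself, chr10:115809001-115810000, 6817 bp from the gene, was at 30.7% in TSPAN8-high against 43.2% in TSPAN8-low over 4 CpGs, a difference of -12.5 points (Fisher's exact test, adjusted p = 0.459). Beside Foxo1, a transcription factor needed for stem cell maintenance, chr3:52385001-52386000 was at 68.9% in TSPAN8-high against 62.7% in TSPAN8-low. Neither tile differed beyond the threshold of the test.

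The tile for the differentiating class lay 92987 bp from Kit, the receptor that marks differentiating spermatogonia, at 38.2% in TSPAN8-high against 33.8% in TSPAN8-low. That for meiosis lay 65627 bp from Prdm9, the histone methyltransferase that places recombination sites, at 38.1% in TSPAN8-high against 54.7% in TSPAN8-low (Fisher's exact test, adjusted p = 0.265). Of germline genes repressed by methylation in the soma, Dazl, Piwil1 and Rpl10l had intermediate tiles at a distance, 4 of 75 tiles. Of these 3 genes only Dazl had its promoter measured among the 15 promoters below 20% given above.

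Imprinted genes had 13 intermediate tiles of 229, or 5.68%. The tile chr7:142669001-142670000, 2185 bp from the growth factor gene Igf2 and over its antisense RNA Igf2os, was at 54.6% in TSPAN8-high against 45.8% in TSPAN8-low. The Hox clusters had 2 of 91, both near Hoxc genes on chromosome 15. Beside the listed genes of Sertoli, Leydig, peritubular myoid and endothelial cells and of macrophages and leukocytes, there were 4 of 112, 1 of 41, 2 of 34, 1 of 108 and 3 of 43. Protocadherin clusters had 1 measured tile, which was not intermediate.

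Some windows of 1 Mb were rich in such tiles. Of 2382 windows with measured intergenic tiles, 1476 held at least 1 intermediate tile and 7 held at least 10, and those 7 had 105 of their 243 measured tiles in the class. No intermediate tile in any of the 7 windows was called different between the libraries. The test, described further below, called 1.08% of all intermediate tiles and 0.648% of all tiles. With shares so low, nothing is read from the absence of calls among 105 tiles. Cytosines that the rule had not read averaged between 58.1 and 73.1% in these windows, below their means over all autosomes, 75.4% (TSPAN8-high) and 75.5% (TSPAN8-low). The windows were chosen by their intermediate tiles, and neighbouring cytosines share fragments and reads, so these means are not independent of the choice.

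On chromosome 9, the window from 36 Mb had 12 intermediate tiles of 20, pooled at 50.3% in TSPAN8-high against 45.9% in TSPAN8-low, and it holds 5 Pate genes, which encode small secreted proteins of prostate and testis. On chromosome 5, the window from 145 Mb had 14 of 30, at 51.7% in TSPAN8-high against 50.3% in TSPAN8-low, beside 7 Cyp3a genes for drug- and steroid-oxidizing cytochrome P450 enzymes. On chromosome 3, the window from 106 Mb had 14 of 28, at 52.5% in TSPAN8-high against 49.7% in TSPAN8-low, beside 4 Chil genes, the chitinase-like proteins. In these 3 windows no measured intergenic tile was below 20% in both libraries.

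On chromosome 13, the window from 12 Mb had 17 of 54, at 49.5% in TSPAN8-high against 50.7% in TSPAN8-low, and holds Prl2c2 and Prl2c3, placental hormones of the prolactin family. Of those 17 tiles, 7 lay in chr13:12923001-12932000. The other 3 windows begin at 3 Mb, where the assembled sequence of mouse chromosomes starts. They held 24 of 44 tiles on chromosome 9, 14 of 28 on chromosome 16 and 10 of 39 on chromosome 12. Of the 24 on chromosome 9, 13 lay in chr9:3017001-3038000 and 5 in chr9:3000001-3011000, stretches described further below. Tiles inside genes in the window on chromosome 9 had medians of 95% in TSPAN8-high against 92.0% in TSPAN8-low, so the intermediate level was not shared by the whole window.

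Few intermediate tiles adjoined another, in a table in which many neighbouring tiles were not measured: within 5 kb, 2238 neighbours were measured, for 553 tiles on both sides. Of the runs of adjoining intermediate tiles, 2843 were a single tile, 59 a pair, 1 had 3 tiles and 2 had 6. The longest runs were chr9:3028001-3034000, at 33.3% in TSPAN8-high against 33.5% in TSPAN8-low over 74 cytosines, and chr13:12926001-12932000, at 45.1% in TSPAN8-high against 45.4% in TSPAN8-low over 69 cytosines, 64120 bp from Prl2c2. The run of 3, chr9:3035001-3038000, was at 40.2% in TSPAN8-high against 36.3% in TSPAN8-low.

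Among the stretches with the most measured cytosines, 4 had CpGs at a repeated distance. In chr9:3017001-3038000, with 13 intermediate tiles, the commonest distance between listed CpGs 100 to 450 bp apart was 234 bp, which 75 of 980 pairs had, or 7.65%. The same distance was commonest in chr9:3000001-3011000 (24 of 562 pairs) and in chr2:98662001-98667000, there by 6 of 246 pairs against 5 at 119 bp, and it came after 351 bp in chr14:19415001-19419000 (11 of 423 pairs). In all other intermediate tiles 0.247% of pairs had it, against 0.285% if the pairs were spread evenly. The value 234 bp is also the length of the repeat unit of mouse major satellite DNA, which lies beside the centromeres. Repeated spacing of 234 bp was not found in chr13:12923001-12932000 or in chr12:20229001-20235000. In the stretch on chromosome 12 the commonest distances, 120 and 416 bp, had 6 pairs each of 506, as many pairs as 234 bp had on chromosome 2. Its 3 intermediate tiles stood at 61.8% in TSPAN8-high against 61.0% in TSPAN8-low. All 6 measured tiles of that stretch were pooled at 68.9% in TSPAN8-high against 70.1% in TSPAN8-low. Sequence of the repeated stretches was not used here, and whether their reads came from these places or from copies elsewhere was not determined.

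The 24 intermediate tiles in those 4 stretches held 21.6% of the class's reads in TSPAN8-high against 22.7% in TSPAN8-low. They were pooled at 34.7% (TSPAN8-high) and 35.4% (TSPAN8-low), in the lower part of the range, against 51.2% (TSPAN8-high) and 51.1% (TSPAN8-low) for the other 2952. The stretch on chromosome 2 alone held 13.8% of the class's reads in TSPAN8-high against 14.0% in TSPAN8-low. Not all measured tiles of the stretches were in the class. In chr9:3017001-3038000 13 of 21 were, and all 21 were pooled at 31.7% in TSPAN8-high against 30.5% in TSPAN8-low. In chr9:3000001-3011000 5 of 10 were, and all 10 were pooled at 30.5% in TSPAN8-high against 30.4% in TSPAN8-low. The tile chr2:98666001-98667000, over 1 Mb from Lrrc4c, was the deepest of all, with 36300 reads in TSPAN8-high against 37310 in TSPAN8-low over 37 cytosines, and stood at 34.5% in TSPAN8-high against 35.2% in TSPAN8-low. Its single cytosines ranged from 7.00 to 62.0% in TSPAN8-high, and from 7.00 to 59.0% in TSPAN8-low. Over the whole class, 0.370% of intermediate tiles had a median over 50 reads per cytosine in both libraries, against 0.0681% of other intergenic tiles.

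Further tiles with many cytosines showed the same range. The tile chr2:98662001-98663000 was at 31.5% in TSPAN8-high against 31.2% in TSPAN8-low over 39 cytosines. The tile chr14:19416001-19417000 was at 40.4% in TSPAN8-high against 43.3% in TSPAN8-low, with an adjusted p of 0.00980 by Fisher's exact test at a difference of -2.91 points, which is under the 10 points a call needed. The tiles chr14:19418001-19419000, at 34.7% in TSPAN8-high against 35.1% in TSPAN8-low, and chr9:3000001-3001000, at 31.7% in TSPAN8-high against 30.3% in TSPAN8-low, were near the lower bound. Outside the repeated stretches, the best measured was chr5:139659001-139660000, 46692 bp from Micall2, at 39.5% in TSPAN8-high against 44.5% in TSPAN8-low over 25 cytosines. The tile near Gm597 on chromosome 1, chr1:29571001-29572000, had a median of 205 reads per cytosine in TSPAN8-high against 125 in TSPAN8-low and stood at 43.9% in TSPAN8-high against 45.7% in TSPAN8-low.

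Around intermediate tiles the level climbed with distance, and at 3 to 5 kb it was near that around other intergenic tiles. Cytosines inside intermediate tiles were left out of the flanks of every class. The mean level of cytosines with at least 10 reads was 53.0% in TSPAN8-high against 53.1% in TSPAN8-low at 0.5 to 1.5 kb from the tile's centre, 60.5 and 60.7% at 1.5 to 3 kb, and 65.1 and 64.9% at 3 to 5 kb. It was 69.4% in TSPAN8-high against 69.5% in TSPAN8-low at 50 to 100 kb. Around the other intergenic tiles it was 63.7 and 63.8% at 0.5 to 1.5 kb, and 65.3 and 65.4% at 3 to 5 kb. At 50 to 100 kb from those tiles it was 71.3% in each library. Around tiles above 80% it was 86.7% in TSPAN8-high against 86.9% in TSPAN8-low at 0.5 to 1.5 kb, and around tiles below 20% it was 23.0% in each. The curves of both libraries nearly coincided in each class.

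**Figure D4:**
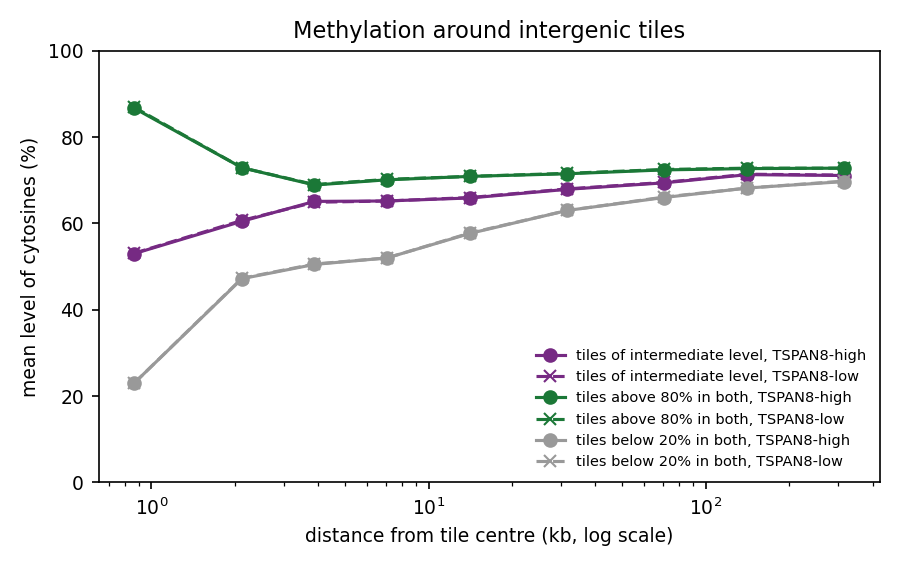
Mean methylation level of cytosines (y, %) by distance from the tile's centre (x, kb, log scale), for intermediate tiles (purple), tiles above 80% (green) and tiles below 20% (grey) in both libraries; circles and solid lines are TSPAN8-high, crosses and dashed lines TSPAN8-low. Intermediate tiles were flanked by 53.0 and 53.1% at 0.5 to 1.5 kb and by about 71% beyond 100 kb. Cytosines inside intermediate tiles were left out of all curves.

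Both immediate neighbours were measured within 5 kb for 553 of the 2976 intermediate tiles. The neighbours were above 80% on both sides of 145 of them, or 26.2% (95% Wilson interval 22.7 to 30%, which takes tiles as independent). They were below 20% on 1 side and above 80% on the other side of 144, or 26.0%, and between those levels on both sides of 59. Of the other intergenic tiles with both neighbours measured, 41.4% had both above 80% and 24.0% had 1 below 20% and 1 above 80%, so the share at such borders was near that of the rest. A measured neighbour was itself an intermediate intergenic tile in 11.6% of cases, against 3.20% beside other intergenic tiles. The share between methylated neighbours was lower under some other settings. With at least 20 reads it was 10.7% (interval 3.71 to 27.2%), a wide interval that includes 26.2%. It was 8.77% (3.81 to 18.9%) with at least 5 CpGs and 14.0% (9.87 to 19.5%) with neighbours within 2 kb. These shares were not tested.

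The pooled level of the intermediate tiles was nearly the same in both libraries. The rule chose the tiles on these levels, with the same range in both, so no likeness of the libraries is concluded from it. Pooled over all of them the level was 47.6% in TSPAN8-high against 47.6% in TSPAN8-low, a difference of 0.0382 points (95% Newcombe interval -0.182 to 0.259, counting error only). The difference per tile, TSPAN8-high minus TSPAN8-low, had a median of 0 points, with quartiles of -6.16 and 6.08 points. It was within 10 points at 72.3% of tiles and at least 20 points at 4.10%, or 122 tiles. Of the other intergenic tiles, 91.8% were within 10 points. Tiles of the same levels inside genes and at gene ends were so in 73.7 and 75.6% of cases. The rule itself allows no difference over 40 points.

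By a two-sided Fisher's exact test on pooled reads, with Benjamini-Hochberg adjustment over all 187549 tiles, 32 intermediate tiles differed by 10 points or more at an adjusted p below 0.05. That was 1.08% of them, beside 0.648% of all tiles, 0.896% of autosomal intergenic tiles, and 1.24% and 0.605% of tiles of the same levels inside genes and at gene ends. An unadjusted p below 0.05 was found at 328 of them, or 11.0%, beside 11.7% of all tiles. Of the 32, 19 were higher in TSPAN8-high (0.638%, beside 0.343% of all tiles) and 13 were lower (0.437%, beside 0.305%). Since the rule used the levels of both libraries, nothing is read from these shares. When 1 CpG was kept per 100 bp, so that a read was counted less often, 1 of the 32 was still called, and 31 of 32 kept their direction. The CpGs kept were among those that made the calls, so the kept direction gives no separate support. With at least 20 reads 8 of the 32 could be measured and 3 were still called.

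The tile with the largest rise was chr10:96956001-96957000, over the lncRNA Gm33981 and 35810 bp from Gm46240, at 66.7% of 180 reads in TSPAN8-high against 31.3% of 198 reads in TSPAN8-low (Fisher's exact test, adjusted p = 5.61e-08). Single cytosines ran from 17.0 to 92.0% in TSPAN8-high, and from 0 to 64.0% in TSPAN8-low, so the ranges overlapped. Its 12 cytosines with fewer reads stood at 18% in TSPAN8-high against 3.57% in TSPAN8-low, also higher in TSPAN8-high but far below the level that put the tile in the class. The tile chr10:121757001-121758000 near BC048403 was at 66.3% in TSPAN8-high against 31.2% in TSPAN8-low (Fisher's exact test, adjusted p = 0.000603), while its 7 cytosines with fewer reads were at 93.6% in TSPAN8-high against 91.7% in TSPAN8-low. Beside Tspan5, another tetraspanin gene, chr3:138658001-138659000 was at 63.8% of 69 reads in TSPAN8-high against 33.7% of 86 reads in TSPAN8-low (Fisher's exact test, adjusted p = 0.0414).

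The other rises among the 5 largest were 28.6 points in chr17:73853001-73854000 near Ehd3, a gene of endosome recycling, and 28.5 points in chr10:67365001-67366000 near the autophagy gene Nrbf2. The largest fall was in chr3:159282001-159283000, over the lncRNA Gm20752, at 33.3% in TSPAN8-high against 68.4% in TSPAN8-low with 57 reads each (Fisher's exact test, adjusted p = 0.0409). The tile chr15:8840001-8841000 near Ranbp3l was at 34.0% in TSPAN8-high against 67.6% in TSPAN8-low (Fisher's exact test, adjusted p = 0.00249), but its 8 cytosines with fewer reads ran the other way, at 47.0% in TSPAN8-high against 30.6% in TSPAN8-low. The tile chr2:75055001-75056000, 178253 bp from Mtx2, a gene for a mitochondrial import protein, was at 37.5% in TSPAN8-high against 67.5% in TSPAN8-low (Fisher's exact test, adjusted p = 0.000755), and it was the call that remained with 1 CpG per 100 bp. Its 3 cytosines with fewer reads ran the other way, at 85.2% in TSPAN8-high against 64.7% in TSPAN8-low. The tiles near Ccdc184, chr15:98174001-98175000, and near the cytochrome P450 gene Cyp2c69, chr19:39897001-39898000, differed by -30.7 and -28.6 points.

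Cytosines with fewer reads gave a second reading of the called tiles. In the 18 tiles called higher that had any, 95 such cytosines were at 50.6% in TSPAN8-high against 48.4% in TSPAN8-low, a difference of 2.24 points (95% Newcombe interval -2.69 to 7.14), with 9 tiles higher, 8 lower and 1 equal. In 11 tiles called lower, 67 such cytosines were at 43.9% in TSPAN8-high against 50.5% in TSPAN8-low, a difference of -6.62 points (-12.4 to -0.786), with 5 tiles higher and 6 lower. The median differences at the cytosines that made the calls were 25.1 and -27.4 points. Most of the size of the called differences was thus not seen at neighbouring cytosines of the same tiles.

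**Figure D5:**
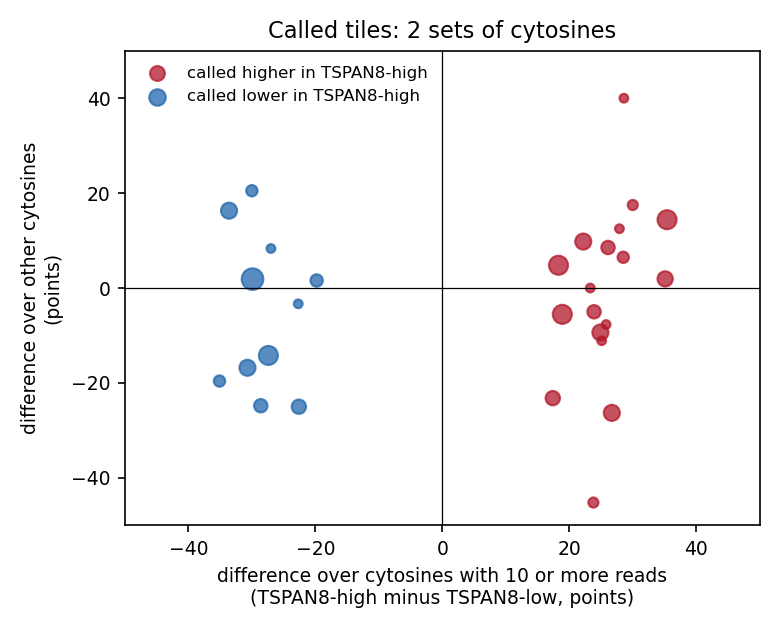
Difference in level, TSPAN8-high minus TSPAN8-low in percentage points, over the cytosines that made the call (x) and over cytosines with fewer reads in the same tile (y), for 18 tiles called higher (red) and 11 called lower (blue) in TSPAN8-high; a larger point has more cytosines with fewer reads. On the y axis the points lie on both sides of 0, with 9 of 18 above it among tiles called higher and 6 of 11 below it among tiles called lower.

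Over all intermediate tiles with such cytosines, the second reading, pooled by reads, was 50.9% in TSPAN8-high against 51.7% in TSPAN8-low. That was a difference of -0.741 points (95% Newcombe interval -1.15 to -0.330), where the cytosines used by the rule differed by 0.0382 points over all tiles. As unweighted means, given further above, the same cytosines were at 50.9 and 51.3%, a smaller difference. In 367 tiles at least 10 points higher in TSPAN8-high, the cytosines with fewer reads were at 52.3% in TSPAN8-high against 50.5% in TSPAN8-low, a difference of 1.81 points (0.677 to 2.93). In 382 tiles at least 10 points lower, they were at 49.1% in TSPAN8-high against 52.5% in TSPAN8-low, a difference of -3.38 points (-4.45 to -2.30). The median differences at the cytosines used by the rule were 13.9 and -13.9 points in the same tiles. Where the first difference was at least 20 points, the second was 4.31 points in 59 higher tiles and -4.18 points in 53 lower tiles. These intervals take reads as independent and are too narrow where a read covers several CpGs.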

How the data were processed

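DNA methylation was measured by RRBS in 1 TSPAN8-high and 1 TSPAN8-low library. The authors deposited 1 table of single cytosines in CpGs on either strand, with the methylation level of each library as a fraction and the coverage as read counts, none below 5. The table's own p-values and differences were not used. Builds mm9 and mm10 and the tools Bowtie and SICER appear in the submitters' processing notes, tied to no assay, and the aligner settings are not given in the sources used here. All 229480 listed autosomal cytosines that lay in RefSeq GRCm38.p6 start windows fell on a CG, so positions were read as mm10.

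The number of methylated reads was the rounded product of level and coverage. Cytosines that reached 10 reads in each library, 16 at the median, were pooled in tiles of 1000 bp (Python 3.11.15, pandas 2.3.3, numpy 2.4.6, scipy 1.17.1, numba 0.67.0). The condition that at least 50% of cytosines lie between 20 and 80% was applied to both libraries jointly. For each tile a two-sided Fisher's exact test was run, with Benjamini-Hochberg adjustment over all tiles, and the test was checked on simulated data. The labels' protocols describe no molecular identifiers and a read counts at each CpG it covers, so p values are too small, and intervals cover counting error only. Nothing here measures error between replicates. The tiles and gene lists were chosen with earlier results of these data known.

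Named tiles are the 6 with the most cytosines, the 5 largest called rises and falls, the 3 longest runs, the 3 deepest, up to 2 on each side of each bound, and up to 3 per gene list, with chromosome 18 and the sex chromosomes left out of naming. The planned sequences of these tiles were replaced by RefSeq start windows, since no genome was used here. Genes whose symbols show a tandem family in a window were named after the windows were seen, as were the stretches with repeated spacing. Alternatives covered depth, CpG number, level range, tile position, distance from genes, strand, depth outliers and the minimum difference.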

Additional observations from a re-analysis of the deposited data

How the results depend on the processing

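No paired analysis was possible because each fraction had 1 library. The causes of the changes given next were not tested. With at least 20 reads there were 321 intermediate tiles, 4 called higher and 4 lower in TSPAN8-high, and a pooled difference of -0.244 points. At that depth 10.7% (interval 3.71 to 27.2%) lay between methylated neighbours, and the cytosines with fewer reads were at 48.3%. With at least 5 reads there were 9568 tiles, 27 called lower, a pooled difference of -0.201 points (interval -0.348 to -0.0536) and 30% between methylated neighbours. With at least 5 CpGs there were 737 tiles, 10 called higher, 5 lower, 8.77% (interval 3.81 to 18.9%) between methylated neighbours and 49.3% at the cytosines with fewer reads. Levels from 40 to 60% left 1068 tiles, with 0 called higher and 0 lower by Fisher's exact test, where differences over 20 points cannot occur. Without the condition on single cytosines 21 were called lower and the cytosines with fewer reads were at 48.3%. Tiles shifted by 500 bp gave 22.3% between methylated neighbours, and over 10 kb from gene ends 8 were called lower. On the plus strand alone 4 were called higher and 4 lower, and on the minus strand alone 5 and 5. With 1 CpG per 100 bp 0 were called higher and 1 lower. Methylated neighbours were on both sides of 14.0% within 2 kb, and of 30.2% at a level above 70%. The other alternatives, among them leaving out the deepest 1% of cytosines and, chosen after seeing the data, the 24 tiles of repeated spacing, left the number of tiles, the calls and the pooled difference within 1.5 times of their counts or within the interval of the pooled difference. Of the 32 calls, 8 could be measured at 20 reads, where 3 remained, and 20 of 32 remained with cytosines from 5 reads. A median of 16 reads per cytosine and 89 or 88 per tile cannot show small differences at single tiles.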

Other observations

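Tiles at genes that met the same level conditions had partly different surroundings from the intergenic ones. Inside genes 1287 tiles did so, with medians of 51.4% in TSPAN8-high against 51.3% in TSPAN8-low, and within 1 kb of gene ends 496 did so, with 48.4% in TSPAN8-high against 47.6% in TSPAN8-low. Of the gene end tiles with both neighbours measured, 112 of 208 (53.8%) lay between a tile below 20% and a tile above 80%, against 144 of 553 (26.0%) of the intergenic ones and 132 of 420 (31.4%) of those inside genes. Cytosines with 5 to 9 reads in at least 1 library were pooled by tile where at least 3 were listed. They put 39.9% of 338 gene end tiles, 46.5% of 883 gene body tiles and 51.6% of 1885 intergenic ones at 30 to 70% in both libraries. By the same test 16 gene body tiles (1.24%) and 3 gene end tiles (0.605%) were called different between the libraries. These differences between classes were not tested.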
